A study of Mus musculus with 12 samples.

Results

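The genes described here are 10 regulators of mRNA decay: the antiproliferative genes Btg1, Btg2, Btg3, Tob1 and Tob2, the zinc-finger genes Zfp36, Zfp36l1 and Zfp36l2, and the deadenylase genes Cnot7 and Cnot8. They were taken by symbol from the 24421 genes of each count file, and all 10 were found and passed the filter on low counts. The families were chosen by function around Btg2, whose difference between fear case and control in these libraries was already known, so that comparison is given for the 10 genes as a description and supports nothing. Polyribosomal RNA, which sediments through a sucrose cushion together with ribosomes, was sequenced from the hippocampus of C57/Bl6 mice aged 6 weeks. The labels give 6 control and 6 fear case libraries. The protocol text is the same for both groups: each mouse spent 8 min in an unfamiliar context, then 7 min in its home cage, and was collected at 15 min. The text leaves unsaid what set the controls apart and whether shocks were used, and the labels do not say that each library came from a separate mouse, so the spread between samples may be technical.

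Messenger RNAs are usually degraded after their poly(A) tail has been shortened, and most of that shortening is done by the CCR4-NOT complex, whose catalytic subunits include the paralogous nucleases CNOT7 and CNOT8. BTG and TOB proteins bind these nucleases through a conserved domain and stimulate deadenylation, and the TOB proteins also contact the poly(A)-binding protein. ZFP36 proteins bind AU-rich elements in 3′ untranslated regions and recruit the same complex to selected transcripts. Btg2 and Zfp36 are known as immediate early genes in many cell types, including neurons, and Btg2 is also a target of p53.

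Gene counts came to 44.2 M in fear case 6, the deepest library, and to 18.6 M to 24.2 M in the other 11 (M, 1000000 counts). The ribosomal RNA gene Rn45s took 12.5% of the gene counts of fear case 6 and 4.55% to 7.98% of those of the other 11. Astrocyte markers (10 of 10 tested) also stood apart in fear case 6, with a sum of 2542 CPM against 1644 to 2197 CPM in the controls. The groups differed in markers of both linings of the ventricles, the choroid plexus epithelium and the ependyma. The 17 choroid plexus markers summed to 1161 to 3058 CPM in the controls and to 156 to 647 CPM in fear case 1 to 5, against 2343 CPM in fear case 6 (CPM, counts per 1000000 of the scaled library size). All 16 tested markers of that list had a negative log2 fold change, where 48.6% of all tested genes were above 0. Up to 4 of the 17 were at 0 in a library. With edgeR, DESeq2 and limma-voom 0 of the 16 were called over the 12 libraries. With 1 library left out, edgeR called at most 16 of the 16, where such fits called 9 to 128 of all genes. The 7 ependymal markers summed to between 34.9 and 44.7 CPM in controls and, in fear case, to between 24.2 and 28.7 CPM, so the groups did not overlap, with at most 1 marker at 0 in a library. For single genes, every fear case library was below every control in 0.33% of the 14564 tested. Of the 6 tested ependymal markers 5 had a negative log2 fold change. Tekt1, a tektin of cilia, was called lower with edgeR (log2 fold change -1.02, SE 0.20, adjusted p = 0.0483), while DESeq2 called 4 and limma-voom 0. Over all genes tested, edgeR called 0.103%, DESeq2 0.433% and limma-voom 0.0824%. With 1 library left out, edgeR called 0 of the 6 ependymal markers except without control 6 (1) and without fear case 6 (3). Over all genes tested, those fits called 15 of 14705 and 128 of 14665. Neuronal markers, all 12 of which were tested, summed to between 8866 and 9712 CPM in controls, and in fear case to between 9141 and 9623 CPM. In bulk tissue, fewer cells of a type and less RNA per cell cannot be told apart.

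In the controls the deadenylases were the most abundant of the 10 transcripts per length and Zfp36 and Btg3 the least. Levels per length are counts per kilobase of merged exon per 1000000 counts (RPKM, mean ± SD, n = 6). Cnot8 stood at 35.5 ± 3.32 RPKM and Cnot7 at 23.1 ± 2.10 RPKM, and Cnot8 was above Cnot7 in all 6 controls with no overlap of their ranges. Tob1 followed at 20.6 ± 3.00 RPKM, and its range overlapped that of Cnot7. Next came a group whose neighbours overlapped: Zfp36l1 at 10.1 ± 1.40 RPKM, Zfp36l2 at 9.22 ± 1.22 RPKM and Btg1 at 7.70 ± 0.727 RPKM. Btg2, at 5.16 ± 0.227 RPKM, lay below Btg1 and above Tob2, at 3.78 ± 0.442 RPKM, without overlap on either side. Zfp36 at 0.640 ± 0.341 RPKM and Btg3 at 0.328 ± 0.0961 RPKM overlapped each other and lay below all the rest. Among 14030 tested genes with an annotated exon length, Cnot8 was at percentile 91.4, Btg2 at percentile 52.2 and Btg3 at percentile 7.91 of the control means.

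Merged exons overstate the length of a gene whose longer models are little used, so the order near Btg2 depends on the annotation. With the length of the longest transcript in place of merged exons, Tob2 stood at 6.07 ± 0.710 RPKM, above Btg2 at 5.16 ± 0.227 RPKM, and the other 8 genes kept their places. In the fear case libraries Btg2 was the fifth of the 10 at 9.71 ± 1.82 RPKM, between Zfp36l1 at 10.5 ± 1.66 RPKM and Zfp36l2 at 8.97 ± 1.23 RPKM.

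**Figure D1:**
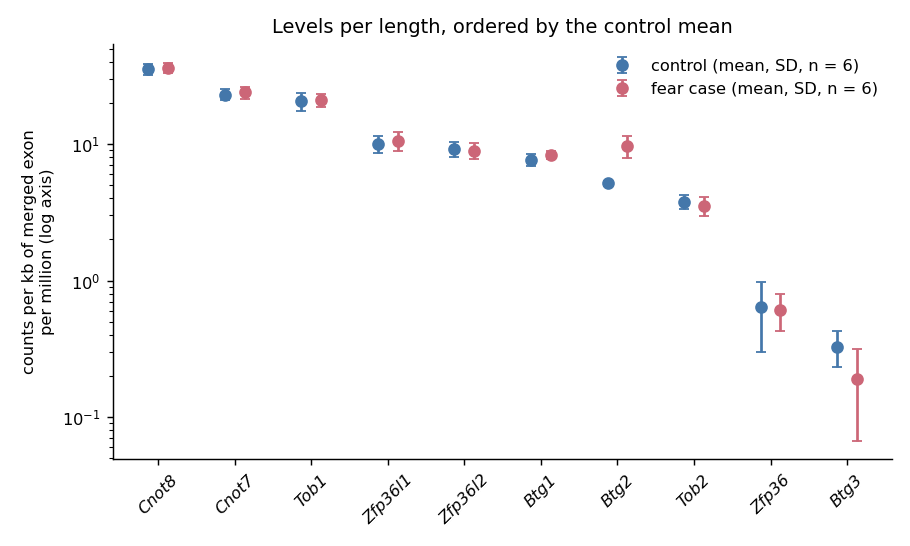
Levels per length of the 10 genes (counts per kilobase of merged exon per 1000000, log axis), ordered by the control mean, with points and bars for the mean and SD of 6 control and 6 fear case libraries. Cnot8 leads at 35.5 in controls and Btg3 is last at 0.328, and Btg2 moves from 5.16 in controls to 9.71 in fear case.

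Btg2 rose 1.88-fold in fear case (95% interval 1.60 to 2.22) and none of the other 9 genes passed the test. Btg2 occupies chromosome 1, 134075170 to 134079120, minus strand (GRCm38), and its exons overlap no other annotated gene. Its level was 13.4 CPM in the lowest control, 14.1 CPM at the median and 15.2 CPM in the highest, and 20.7, 27.0 and 33.1 CPM in fear case. Every fear case library was above every control, with fear case 3 and fear case 5 the lowest and fear case 6 and fear case 1 the highest of their group. The log2 fold change was 0.91 (SE 0.11, adjusted p = 0.000235 over all genes tested). Of the 14564 genes tested, 0.0481% were called higher, 0.0549% lower and 0.103% in either direction, and in 0.268% every fear case library was above every control. Since Btg2 was the reason for choosing these families, nothing is read from 1 call among 10 genes.

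**Figure D2:**
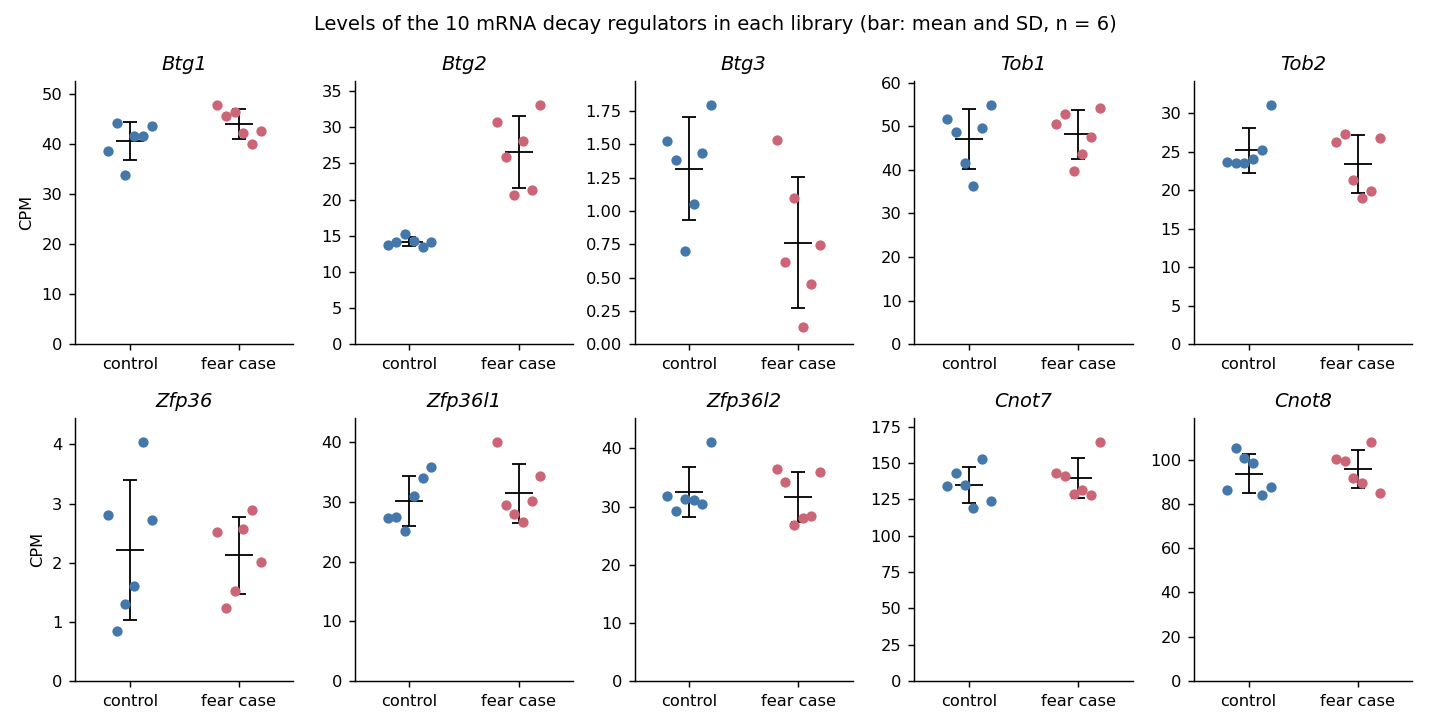
CPM of each gene (vertical axis from 0, a scale per gene) in 6 control and 6 fear case libraries, points for libraries and bars for the mean and SD. For Btg2 the controls lie between 13.4 and 15.2 CPM and the fear case libraries between 20.7 and 33.1 CPM, and for the other 9 genes the groups overlap.

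The markers of other cell types are set beside the Btg2 levels as follows. Fear case 4 and fear case 2 had the lowest choroid plexus sums, 156 and 159 CPM, and Btg2 at 28.1 and 25.9 CPM. Fear case 6, with the highest Btg2 level, had a choroid plexus sum within the control range, an ependymal sum of 28.7 CPM, below every control, and the astrocyte sum and Rn45s share above every control. The ependymal sum, like Btg2, separated all 6 fear case libraries from all 6 controls. With the mean choroid plexus marker level as a covariate, the log2 difference of Btg2 was 1.07 (SE 0.14, adjusted p = 0.000609). Over all 21 alternatives its adjusted p ran from 8.0e-11 to 0.00508. Markers of microglia (10 of 10 tested) summed to between 57.6 and 109 CPM in controls, and in fear case to between 52.7 and 86.1 CPM. Those of endothelial and mural cells (10 of 12 tested) had a median sum of 47.7 CPM in controls, against 44.5 CPM in fear case. Oligodendrocyte markers (10 of 10 tested) summed to between 2114 and 2843 CPM in controls, and in fear case to between 1933 and 2870 CPM. Their log2 fold changes were positive for 2 and negative for 8, with a median of -0.13, where 48.6% of all tested genes were above 0. The part of ependymal, astrocyte, oligodendrocyte, microglial and vascular RNA in the Btg2 result was not tested. For the choroid plexus the covariate value is a description only. Without fear case 6, the log2 difference of Btg2 was 0.84.

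Promoters are shown for Btg2, for its closest relative Btg1, and for Zfp36, because they show the cyclic AMP response element in its full and core forms and the CArG box, both known from activity-regulated genes. Each is the window from 250 bases before to 50 bases after the gene's start in RefSeq (GRCm38.p6). Such windows were at hand for 8 of the 10 genes, not for Zfp36l2 and Cnot7. Capitals mark the core TGACG of the cyclic AMP response element on either strand, and in Zfp36 the CArG box, the binding site of serum response factor. The Btg2 window is chr1:134079106-134079405 on the minus strand, that of Btg1 is chr10:96616751-96617050 on the plus strand and that of Zfp36 is chr7:28379179-28379478 on the minus strand, all printed 5′ to 3′ on the gene's strand.
Btg2: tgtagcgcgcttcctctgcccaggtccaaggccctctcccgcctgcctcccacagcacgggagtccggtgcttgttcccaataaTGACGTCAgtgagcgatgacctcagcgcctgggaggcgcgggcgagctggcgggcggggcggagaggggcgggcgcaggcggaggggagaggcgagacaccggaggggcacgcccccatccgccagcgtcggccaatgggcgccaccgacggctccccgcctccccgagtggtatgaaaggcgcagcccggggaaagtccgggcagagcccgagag
Btg1: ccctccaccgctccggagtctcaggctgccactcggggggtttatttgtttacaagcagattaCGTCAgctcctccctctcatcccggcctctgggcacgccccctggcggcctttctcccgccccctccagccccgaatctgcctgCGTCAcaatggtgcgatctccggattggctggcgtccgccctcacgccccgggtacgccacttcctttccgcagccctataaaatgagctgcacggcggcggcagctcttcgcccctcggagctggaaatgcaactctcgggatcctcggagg
Zfp36: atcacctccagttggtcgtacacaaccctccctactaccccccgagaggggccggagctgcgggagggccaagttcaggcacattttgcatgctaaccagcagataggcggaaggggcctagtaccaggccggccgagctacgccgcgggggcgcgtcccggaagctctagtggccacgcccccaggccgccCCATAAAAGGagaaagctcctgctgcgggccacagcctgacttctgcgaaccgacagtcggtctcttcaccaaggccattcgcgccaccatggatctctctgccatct
The Btg2 window holds the full palindrome TGACGTCA at position -166 from the start, where both strands of the core overlap. This palindrome was in 1.79% of the 32851 promoter windows searched and in none of the windows of the other 7 genes. The core TGACG, searched on both strands, was in 20.8% of all windows, among them those of Btg1 (positions -187 and -103), Tob1 (position -96) and 2 of the 4 windows of Cnot8. Those Cnot8 windows overlap and hold the same site. The windows of Fos, Fosb, Npas4 and Junb, which rose with Btg2, each hold the core and not the palindrome. Arc also rose, but its window was not at hand. A CArG box was in 1.63% of windows and, of these genes, in Zfp36 only, at position -58. A match is a match of letters, and no binding was measured.

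Btg1 (chromosome 10, 96617006 to 96622809, plus strand) did not pass. Its control libraries ran from 33.9 CPM through a median of 41.6 CPM to 44.2 CPM, and its fear case libraries from 40.0 CPM through 44.2 CPM to 47.9 CPM. The groups overlapped, with 3 fear case libraries above all controls. The log2 fold change was 0.12 (SE 0.08, adjusted p = 0.785), and the 95% interval of the fold, 0.969 to 1.22, ended below the lower bound of Btg2. The Btg1 pseudogene rows hold almost nothing, 0 counts for Btg1-ps1 and 2 counts for Btg1-ps2 over all libraries.

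Btg3, whose product inhibits E2F1 besides binding the deadenylases, was near the limit of detection. The gene (chromosome 16, 78332637 to 78377192, minus strand) had 15 to 37 counts per control library and 3 to 36 per fear case library. The controls gave 0.699 CPM at the lowest, 1.41 CPM at the median and 1.80 CPM at the highest, and fear case gave 0.133, 0.683 and 1.53 CPM. Fear case 2, fear case 4 and fear case 5 lay below all controls and the other 3 within their range. The log2 fold change was -0.79 (SE 0.41, adjusted p = 0.728), with a 95% interval of the fold from 0.321 to 1.05. It was -0.57 without fear case 4, the library with 3 counts, and -0.42 with the choroid plexus covariate. Of its exon bases, 695 (17.3%) overlap exons of Cxadr on the opposite strand. The strand setting of the counting is unknown here, and without strand the reads of both genes cannot be told apart over that stretch. Cxadr, a cell adhesion gene, stood at 16.5 ± 1.94 CPM in the control group, against 15.9 ± 3.40 CPM.

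The Tob genes, which join the deadenylases to the poly(A)-binding protein, did not pass. Tob1 (chromosome 11, 94211454 to 94215495, plus strand) ran from 36.4 through 49.2 to 54.9 CPM in controls and from 39.8 through 49.1 to 54.3 CPM in fear case, so that the fear case range lay inside the control range. Its log2 fold change was 0.03 (SE 0.10, adjusted p = 0.971). Tob2 (chromosome 15, 81848272 to 81858796, minus strand) ran from 23.6 through 23.8 to 31.1 CPM in controls. In fear case the median was 23.8 CPM and the highest library 27.3 CPM, with fear case 3 (21.3 CPM), fear case 4 and fear case 5 (19.9 CPM) below all controls. The log2 fold change was -0.10 (SE 0.11, adjusted p = 0.871). The 95% intervals of the fold were 0.887 to 1.18 for Tob1 and 0.797 to 1.09 for Tob2.

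The 3 Zfp36 genes share a feature of sequence rather than a change between groups. ZFP36 proteins recognise the nonamer TTATTTATT (written as DNA) in the 3′ untranslated region of their targets. In the longest annotated 3′ untranslated region of each gene (GENCODE vM21), the nonamer was found once in Zfp36, Zfp36l1 and Zfp36l2 and not in the other 7 genes, against 8.56% of 13336 tested genes. Each site is shown with 10 flanking bases on either side, the nonamer in capitals, beside that of Fos, a described target.
Zfp36: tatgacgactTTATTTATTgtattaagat
Zfp36l1: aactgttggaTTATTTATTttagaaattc
Zfp36l2: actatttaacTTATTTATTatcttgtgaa
Fos: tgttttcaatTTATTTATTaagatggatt
The shorter core ATTTA was present in all 10 genes, as in 71.3% of tested genes, at 1.63 per kilobase in Tob2 to 4.90 per kilobase in Zfp36l1, against a median of 1.34 over tested genes. Btg2 has 5 copies of it in 2199 bases. The Pumilio site TGTANATA was in Btg1 (2 copies), Cnot7 (2 copies) and Cnot8 (1 copy), and in 27.7% of tested genes.

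Zfp36, which encodes tristetraprolin, was scarce and variable. The gene occupies chromosome 7, 28376784 to 28380253, minus strand. Controls gave 0.850, 2.16 and 4.05 CPM at the lowest, median and highest, and fear case 1.23, 2.27 and 2.89 CPM. All fear case libraries lay inside the control range, which spans 4.76-fold between control 2 and control 5. The log2 fold change was -0.07 (SE 0.33, adjusted p = 0.982), and the 95% interval of the fold ran from 0.594 to 1.53.

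The paralogues Zfp36l1 and Zfp36l2 were more abundant and did not pass either. Zfp36l1 (chromosome 12, 80107754 to 80113013, minus strand) ran from 25.2 through 29.2 to 35.8 CPM in controls and from 26.7 through 29.8 to 40.1 CPM in fear case, with fear case 1 alone above all controls. Its log2 fold change was 0.06 (SE 0.11, adjusted p = 0.934). Of its exon bases 55.9% overlap Gm26669, a noncoding gene on the opposite strand that has no row in the files, so unstranded counting would add its reads to Zfp36l1. Zfp36l2 (chromosome 17, 84183931 to 84187947, minus strand) ran from 29.3 through 31.2 to 41.2 CPM in controls and from 26.9 through 31.3 to 36.4 CPM in fear case. Its log2 fold change was -0.04 (SE 0.10, adjusted p = 0.966), with 3 fear case libraries below all controls. The 95% intervals of the fold were 0.896 to 1.22 for Zfp36l1 and 0.842 to 1.13 for Zfp36l2.

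The deadenylases had the smallest standard errors of the 10 and did not pass. Cnot7 (chromosome 8, 40492540 to 40515847, minus strand) ran from 119 through 135 to 153 CPM in controls and from 128 through 136 to 165 CPM in fear case, for a log2 difference of 0.05 (SE 0.08, adjusted p = 0.918). Cnot8 (chromosome 11, 58104153 to 58118594, plus strand) ran from 84.1 through 93.1 to 105 CPM in controls and from 84.8 through 95.6 to 108 CPM in fear case, for a log2 difference of 0.03 (SE 0.08, adjusted p = 0.961). For each gene 1 fear case library lay above all controls. The 95% intervals of the fold were 0.930 to 1.16 for Cnot7 and 0.916 to 1.14 for Cnot8. Exons of Cnot7 overlap those of Zdhhc2 on the opposite strand over 4.24% of their length.

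**Figure D3:**
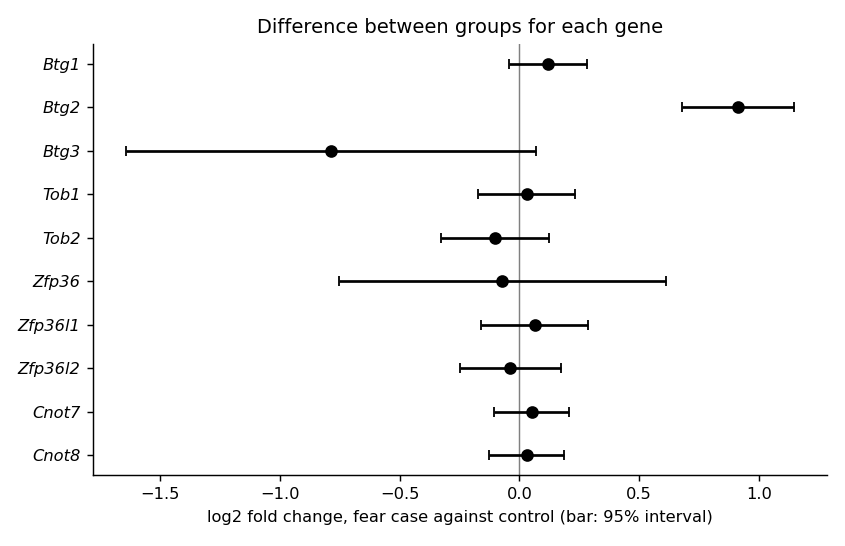
Log2 fold change of fear case against control for each of the 10 genes (points) with its 95% interval (bars). The interval of Btg2 lies from 0.68 to 1.15 and those of the other 9 genes include 0, with Btg3 and Zfp36 the widest.

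With edgeR 6 of the 10 genes had a positive and 4 a negative log2 fold change. None was called lower in fear case, against 0.0549% of all genes tested. Btg2 was the only member with an unadjusted p under 0.05, a level reached by 7.14% of all genes tested. DESeq2 and limma-voom each called Btg2 alone of the 10, where they called 0.433% and 0.0824% of all genes tested. The median log2 fold change over the 10 genes was 0.03, against -0.0046 over all tested genes.

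Btg2 varied least of the 10 genes in the controls and was the third most variable in fear case. Over the 6 controls its SD of 0.623 CPM on a mean of 14.2 CPM was below the 5.89% coefficient of variation that counting error alone gives at its 265 to 327 counts. The other 9 genes varied by 9.07% (Cnot7) to 53.3% (Zfp36) in controls, where counting gives 1.91% to 19.9%. In fear case Btg2 varied by 18.7% where counting gives 4.01%, and the others by 6.81% (Btg1) to 64.7% (Btg3).

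Within groups, the deviations of Btg2 were compared with those of the other 9 genes on the log2 CPM scale after subtracting each group's mean (12 libraries, permutation within groups, adjusted over 9 pairs). None of the 9 pairs passed. The spread of Btg2 in controls (4.40%) was below counting error (5.89%). Mainly the 6 fear case libraries could therefore show a relation, so little is read from its absence. The strongest was Zfp36l2, with Pearson's r of 0.58 (permutation p = 0.0939, adjusted p = 0.433) and Spearman's rho of 0.54 (permutation p = 0.123, adjusted p = 0.916). Without fear case 3 and fear case 6, the libraries farthest from the median of Btg2, r was 0.36. Cnot7 had r of 0.52 (permutation p = 0.0963, adjusted p = 0.433) and rho of 0.31 (permutation p = 0.341, adjusted p = 0.916), and r of 0.15 without those libraries. The lowest r was that of Cnot8 at -0.22 (permutation p = 0.516, adjusted p = 0.774; rho -0.10, permutation p = 0.769, adjusted p = 0.916; r of -0.13 without those libraries).

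The profile of Btg2 over the 12 libraries lay nearest to those of Arc and Junb. Likeness was measured as the root-mean-square difference of log2 CPM after centring each gene on its own mean, over the 10923 other genes averaging 5 CPM or more, among which the median was 0.51. Arc, a postsynaptic gene of glutamate receptor trafficking, differed by 0.23, Junb, an AP-1 subunit, by 0.25, the nuclear noncoding RNA Malat1 by 0.29, and the AP-1 gene Fosb and the tRNA methyltransferase gene Trmt13 by 0.30 each. The measure includes the difference between groups by which Btg2 was noticed. Arc, Junb and Fosb, like Btg2, had all 6 fear case libraries above all controls, Malat1 had 5 and Trmt13 had 4. The libraries did not rank alike: Arc, Junb and Fosb were highest in fear case 1, at 197, 77.8 and 15.9 CPM, whereas Btg2 was highest in fear case 6. Malat1 was called higher (log2 fold change 0.55, SE 0.10, adjusted p = 0.0280). Trmt13 did not pass (log2 fold change 0.47, SE 0.17, adjusted p = 0.520).

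**Figure D4:**
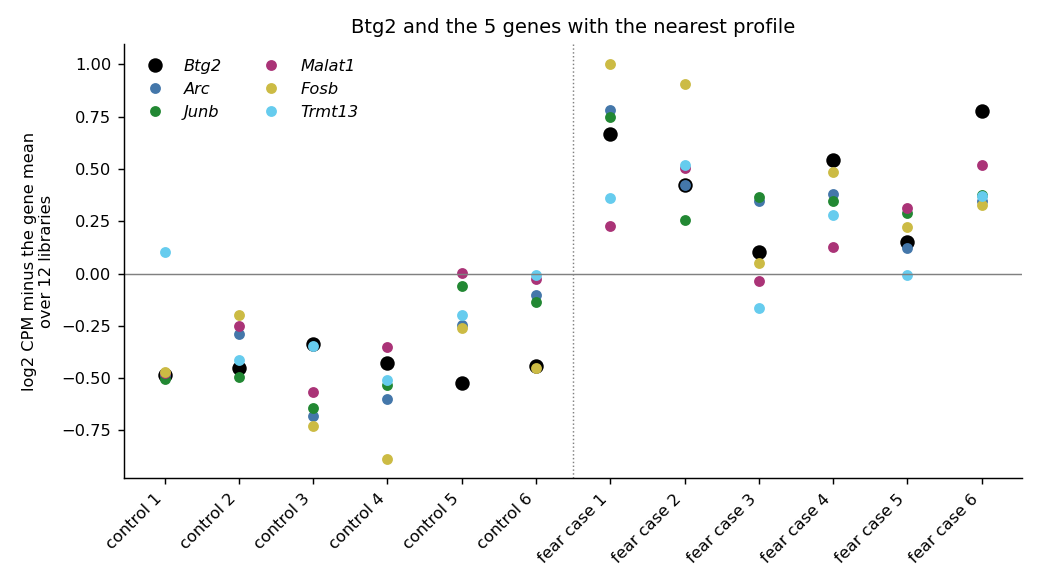
Log2 CPM minus the gene's mean over the 12 libraries (vertical axis) for Btg2 and the 5 genes with the nearest profile, one column of points per library. Btg2 lies below 0 in the 6 controls and above 0 in the 6 fear case libraries, highest in fear case 6.

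None of the decay machinery around these genes passed with edgeR, DESeq2 or limma-voom. Over all tested genes these tools called 0.103%, 0.433% and 0.0824%, and 7.14% had an unadjusted p under 0.05 with edgeR, so lists of this size hold about 0 calls at the background rate and nothing is read from the counts. The values below are log2 fold changes. Of the 11 tested other subunits of CCR4-NOT, 0 were called and 0 had an unadjusted p under 0.05, with a median log2 fold change of 0.06 and a range from -0.07 to 0.14. Cnot1, the scaffold of the complex, had 0.14 (SE 0.07, adjusted p = 0.703), Tnks1bp1 0.13 (SE 0.07, adjusted p = 0.742) and the ubiquitin ligase subunit Cnot4 0.06 (SE 0.08, adjusted p = 0.905). Other deadenylases and poly(A)-binding proteins gave 0 of 14 called, 0 with an unadjusted p under 0.05 and a median of 0.0044. The members with the lowest p were Paip1 at 0.08 (adjusted p = 0.816), Paip2b at -0.09 (adjusted p = 0.824) and Angel1 at -0.25 (adjusted p = 0.849). Decapping and 5′ decay gave 0 of 20 called, 1 with an unadjusted p under 0.05 and a median of -0.0060. The lowest p was that of Lsm7, part of the ring that binds shortened tails, at -0.20 (adjusted p = 0.618), before the 5′ exonuclease gene Xrn1 at 0.18 (adjusted p = 0.738) and Lsm14b at -0.10 (adjusted p = 0.821). The exosome and 3′ decay list gave 0 of 17 called, 0 with an unadjusted p under 0.05 and a median of -0.02, with Dis3l2 at -0.18 (adjusted p = 0.709), Exosc5 at -0.34 (adjusted p = 0.755) and Exosc3 at -0.23 (adjusted p = 0.762).

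Other proteins that bind AU-rich elements or 3′ untranslated regions gave 0 of 28 called, 1 with an unadjusted p under 0.05 and a median of 0.04. Of their values 21 were positive and 7 negative, where 48.6% of all tested genes were positive, and this split was not tested. Tial1, an RNA-binding protein of stress granules, had 0.20 (SE 0.07, adjusted p = 0.506), with 5 fear case libraries above all controls. Rc3h2, which recognises stem-loops, had 0.13 (adjusted p = 0.712) and Pum2, a Pumilio protein, 0.10 (adjusted p = 0.743). MicroRNA silencing genes gave 0 of 12 called, 0 with an unadjusted p under 0.05 and a median of 0.0012, with Ago2 at 0.12 (adjusted p = 0.765), Dicer1 at 0.07 (adjusted p = 0.883) and Prkra at -0.11 (adjusted p = 0.893). Protein partners and the remaining family genes gave 0 of 9 called, 0 with an unadjusted p under 0.05 and a median of 0.03. Among them were Prmt1, the arginine methyltransferase that binds BTG proteins, at -0.11 (adjusted p = 0.848), Mapkapk2, the kinase of tristetraprolin, at -0.09 (adjusted p = 0.850) and Ywhaz at 0.04 (adjusted p = 0.923). Btg4 and Zfp36l3, the family members left out of the 10, had 14 and 3 counts over all 12 libraries and were not tested.

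Among 17 tested mRNAs described as targets of ZFP36 proteins, Fos rose and the other 16 did not pass, with 9 positive and 8 negative values and a median of 0.02. Of the 17, 4 had an unadjusted p under 0.05, against 7.14% of all tested genes. They were Fos, Ier2 (adjusted p = 0.0672), Dusp1 and Egr1 (adjusted p = 0.108 each), and all 4 are also among the rapid immediate early genes below. Fos went from 4.38 ± 1.597 to 20.9 ± 7.21 CPM, a log2 difference of 2.25 (SE 0.23, adjusted p = 1.1e-05). DESeq2 called 3 of the 17 and limma-voom 1, against 0.433% and 0.0824% of all genes. With edgeR, which called 0.103% of all genes over the 12 libraries, 4 were called without fear case 6 and 2 without control 6. Over all genes tested, those fits called 128 of 14665 and 15 of 14705. Of 33 tested rapid immediate early genes other than the 10, 5 rose (Arc, Fos, Fosb, Junb and Npas4) and 28 did not pass, where 0.0481% of all genes were called higher. An unadjusted p under 0.05 was found for 17 of the 33, against 7.14% of all genes. Among these 17, Jund was lower in fear case (log2 fold change -0.18, adjusted p = 0.559). The 33 had 23 positive and 10 negative values. DESeq2 called 9 of the 33 and limma-voom 5, against 0.433% and 0.0824% of all genes. Without fear case 6, edgeR called 10 of the 33, against 128 of all 14665 genes tested. The rise of Btg2, 0.91 on the log2 scale, stood between those of Fosb at 1.03 and Arc at 0.80, and below that of Npas4 at 2.06.

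**Figure D5:**
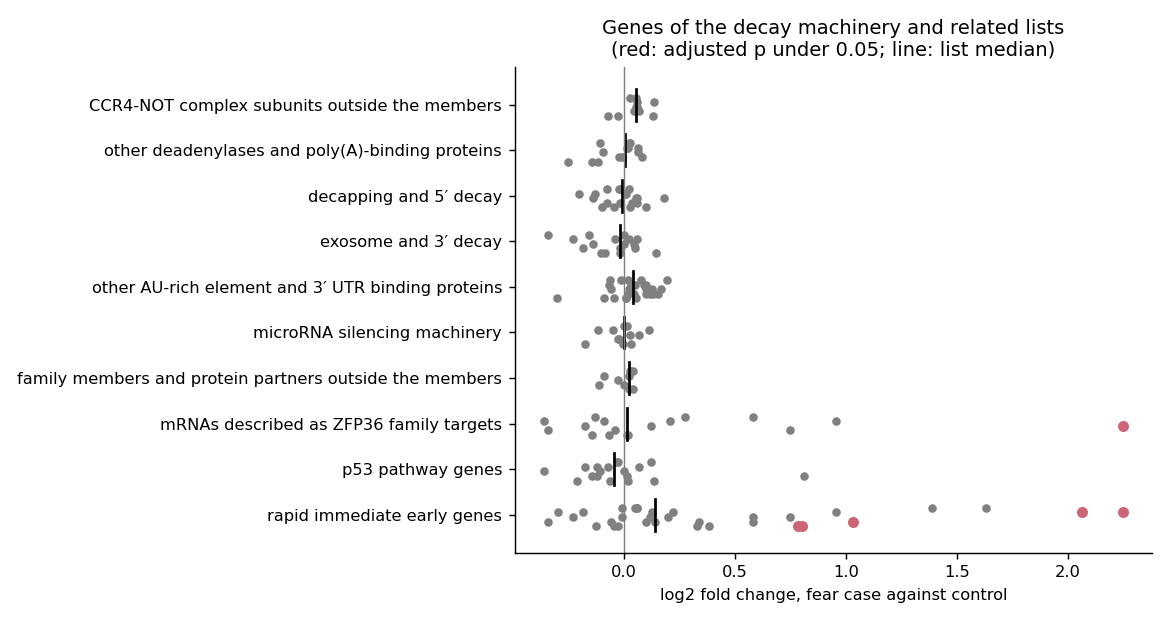
Log2 fold change of fear case against control for each tested gene of 10 lists (points; red where the adjusted p is under 0.05, black lines for list medians). Red points appear among the immediate early genes and, for Fos, the described ZFP36 targets, and the lists of decay machinery lie between -0.34 and 0.20.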

How the data were processed

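Polyribosomal RNA of 12 hippocampal libraries was measured. Each deposited file holds raw counts by gene symbol for 1 library, not normalized by the authors. Per the submitters' processing notes, cutadapt, Bowtie, TopHat and HTSeq were used with mm10; the sources used here give no versions, annotation or strand setting. Per the labels' protocols, RNA was pelleted through a 1 M sucrose cushion for 4 h and sequenced as 40 bp pairs. No input RNA was analysed, so transcript amount and ribosome association cannot be told apart. Alignments marked not unique stand outside the gene rows, so near-identical copies may be undercounted.

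Genes were kept by filterByExpr (minimum count 10, minimum total 15), with TMM scaling, and the 2 groups were tested with the quasi-likelihood F-test of edgeR 4.0.16 (R 4.3.3) without covariates, with Benjamini-Hochberg adjustment over 14564 genes and calls at an adjusted p under 0.05. Each SE was derived from the log2 fold change and its F statistic. Log2 CPM uses a prior count of 2. At 21.6 M counts, the median depth, counting error limits Btg3 and Zfp36 most. Lengths and overlaps come from GENCODE vM21 (GRCm38, the assembly of mm10), which holds 23376 of the 24421 symbols. Motifs were searched in RefSeq promoters on both strands and in the longest 3′ untranslated regions on the sense strand. Protein sequences were not analysed here. On simulated counts of 14440 tested genes, the test recovered 36 of 50 genes changed 1.5-fold and 47 of 50 changed 2-fold. It also called 12 unchanged genes. About 50 genes were changed at each of 1.5-, 2-, 3- and 4-fold, while the data gave 15 calls. More calls loosen the Benjamini-Hochberg cutoff, so these recoveries may overstate those in the data. Members and gene lists were chosen with earlier results of these data known. Named genes are the 10 members, called members of each list or else the 3 of lowest p, the 5 nearest profiles to Btg2 and genes whose exons overlap a member. Names given with per-library values beside these were chosen after their values were seen. Alternatives were other scalings, filters and tools, Rn45s left out, a replicate block, a choroid plexus covariate (mean log2 CPM of 16 markers) and each library left out.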

Additional observations from a re-analysis of the deposited data

Results flagged for a closer look

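In control 6, Tob2 stood at 31.1 CPM and Zfp36l2 at 41.2 CPM, each farther from the other 5 controls than those lie from one another, by Dixon's criterion (a gap to the nearest library of more than 0.625 of the group's range). These were 2 of 20 groups examined, where chance flags about 1 in 20. Without control 6 the log2 fold change of Tob2 was -0.03 and that of Zfp36l2 was 0.04, and neither passed.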

How the results depend on the processing

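Over 21 alternatives, Btg2 was called every time, with a log2 fold change of 0.84 (without fear case 6) to 1.07 (choroid plexus covariate) and an adjusted p of at most 0.00508, and no other member was called in any of them. The number of all genes called moved from 15 to 63 with DESeq2, to 37 without a filter on low counts and to 6 with the choroid plexus covariate, and ranged from 9 (without control 3 or without fear case 2) to 128 (without fear case 6) when a library was left out. Some members that did not pass changed sign around 0. Zfp36 had 0.0328 with limma-voom, 0.0277 with the replicate block and 0.22 with the choroid plexus covariate, with which Zfp36l2 had 0.0603 and Cnot8 -0.0135. With a library left out, the log2 fold change ranged from -0.23 to 0.19 for Zfp36, from -0.0312 to 0.0811 for Tob1, from -0.0189 to 0.119 for Zfp36l1, from -0.0832 to 0.0411 for Zfp36l2, from -0.00274 to 0.0904 for Cnot7 and from -0.00750 to 0.0675 for Cnot8. The cause was not tested. With the longest transcript as length, 8 of 10 members kept their rank, and all 10 did with raw library sizes or a control left out. No within-group relation of Btg2 passed with a prior count of 0.5 or with a library left out.

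The replicate block, the title number as a factor, gave 18 genes called and for Btg2 a difference of 0.89 (log2, SE 0.11, adjusted p = 0.00508), and it changed no member's call. Same-numbered libraries did not deviate together, with correlations of -0.17 to 0.05, and 2 of 12 libraries correlated best with their own number. Depth limits Btg3, with 3 to 37 counts per library, and Zfp36, with 16 to 90.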

Other observations

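Of 18 tested genes of the p53 pathway, which also controls Btg2, edgeR, DESeq2 and limma-voom called 0, and 2 had an unadjusted p under 0.05. Over all genes tested, edgeR called 0.103% and 7.14% had such a p, so these counts are near the background. Plk2, a kinase gene induced by synaptic activity, stood at 294.9 ± 15.0 CPM in controls, against 324 ± 14.2 CPM, a log2 difference of 0.14 (SE 0.06, adjusted p = 0.632) with 5 fear case libraries above all controls. Pmaip1, a proapoptotic gene, stood at 0.478 ± 0.158 CPM, against 0.830 ± 0.294 CPM, a log2 difference of 0.81 (SE 0.38, adjusted p = 0.662), and Trp53 itself had -0.21 (adjusted p = 0.763). The median of the list was -0.04.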
